A study of Mus musculus with 4 samples.

Results

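The 51 genes described here encode the machinery of mitosis: mitotic cyclins and their kinase, the kinases that drive entry into division, the chromosomal passenger complex, the spindle checkpoint, kinetochore proteins, spindle kinesins, spindle assembly factors, cytokinesis proteins and the factors that release sister chromatids. They were taken by symbol from a list of mitotic cyclin, kinase, kinesin, kinetochore and cytokinesis genes. All 51 were present in all 4 libraries, among 19555 rows. Levels are in RPKM, a read count divided by exon length and by library size. Of the 51, 50 had the mean of at least 1 RPKM that was required for a test. Cenpf had a lower mean and was not tested. Its values, ratios and counting intervals are given, and it is included where all 51 genes are counted.

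A dividing cell makes most of these transcripts late in its cycle. Cyclin-dependent kinase 1 bound to cyclin A or B triggers mitosis, Polo and Aurora kinases build and police the spindle, kinetochores tie chromosomes to microtubules, and the anaphase-promoting complex with its activator CDC20 destroys cyclin B and securin so that the chromatids part. Transcription of many of these genes is held down in resting cells and switched on late in the cycle through MuvB complexes, which join first repressive E2F and RB-family proteins and later B-MYB and FOXM1. A naive T cell rests outside the cell cycle and divides fast once activated, so the summed level of these transcripts is often read as a proliferation signature.

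The libraries came from naive CD4+ T cells of spleen and lymph nodes of C57BL/6 mice, activated and cultured for 3 days with IL-6 and TGF-β1, the cytokines that drive T helper 17 (Th17) differentiation. The groups were Smad4 KO at 39.5 °C, Smad4 KO at 37 °C, wild type (WT) at 39.5 °C and WT at 37 °C, with 1 library in each of the 4. SMAD4 joins the SMAD proteins that TGF-β receptors phosphorylate and carries the signal to DNA with them, and 39.5 °C is a fever-range temperature. The study asked how Th17 cells respond to fever-range heat and whether Smad4 matters for it. The sources used here do not say how Smad4 was deleted, which exons were removed, or whether cells of several animals were pooled. With 1 library per group no ratio between libraries has a replicate check. The labels do not state separate animals or cultures, so p-values measure only the spread between these samples, which may be technical.

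Between 18048963 and 18475248 reads per library were recovered from the RPKM values. The 51 genes took 0.382% and 0.247% of them at 39.5 and 37 °C under the Smad4 KO label, and 0.442% and 0.231% at 39.5 and 37 °C in WT. Smad4 itself stood at 21.3 and 20.7 RPKM at 39.5 and 37 °C under the Smad4 KO label, against 14.2 and 14 RPKM in WT, so the targeted gene was higher under the KO label (limma adjusted p = 0.045). A level summed over all exons does not check the loss of part of a gene. The genotype is therefore written below as the KO label. All 6 T cell markers were between 27.8 and 634 RPKM in the 4 libraries. The Th17 markers differed between libraries. Il17a, the signature Th17 cytokine gene, stood at 79.7 and 32.6 RPKM at 39.5 and 37 °C with the KO label and 686 and 134 RPKM in WT. Of 5 Th17 markers, 3 were at least 2-fold lower with the KO label at 39.5 °C (1.05% of all rows) and 3 at 37 °C (1.14%). At both temperatures 0 were 2-fold higher (2.3% and 4.7%). Their median log2 ratio of 39.5 over 37 °C was 0.74 with the KO label and 1.24 in WT. Markers of other cells had low values. The summed level over the 4 libraries was 2.77 to 8.47 RPKM for the 4 of 8 myeloid markers measured and 3.15 to 4.58 RPKM for 2 of 6 CD8 and NK markers. It was 3.85 to 14.4 RPKM for 2 of 6 B cell markers, and at most 0.401 RPKM for the 1 of 6 erythroid and platelet markers measured. Cd14, a myeloid marker, was at 0 in WT at 37 °C.

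Many promoters of these genes share 2 short motifs, and 6 of them are printed because each carries both close to the start of transcription. The letters TTTGAA make up the cell cycle homology region (CHR) that MuvB complexes bind, TTCGAA is its variant, and CCAAT is the box bound by NF-Y. Each stretch runs from 130 bases before to 50 bases after the RefSeq start on GRCm38.p6, with TTTGAA and CCAAT, or ATTGG where CCAAT lies on the other strand, in capitals. The stretches are chr7:122159305-122159484 on the plus strand for Plk1, chr4:118437294-118437473 on the minus strand for Cdc20, chr2:172370521-172370700 on the minus strand for Aurka, chr9:70421505-70421684 on the minus strand for Ccnb2, chr9:61946750-61946929 on the minus strand for Kif23 and chr5:30666756-30666935 on the plus strand for Cenpa.
Plk1: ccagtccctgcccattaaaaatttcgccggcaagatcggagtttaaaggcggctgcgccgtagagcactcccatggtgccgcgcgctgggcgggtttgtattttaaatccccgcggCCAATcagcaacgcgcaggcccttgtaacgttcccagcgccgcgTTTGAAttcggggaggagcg
Cdc20: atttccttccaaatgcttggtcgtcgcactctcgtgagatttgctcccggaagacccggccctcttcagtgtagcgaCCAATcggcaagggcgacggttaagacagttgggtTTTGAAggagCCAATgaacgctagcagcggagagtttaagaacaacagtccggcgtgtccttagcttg
Aurka: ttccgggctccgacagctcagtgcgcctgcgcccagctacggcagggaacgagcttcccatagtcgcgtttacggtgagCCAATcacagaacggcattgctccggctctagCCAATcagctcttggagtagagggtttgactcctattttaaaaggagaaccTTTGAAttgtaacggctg
Ccnb2: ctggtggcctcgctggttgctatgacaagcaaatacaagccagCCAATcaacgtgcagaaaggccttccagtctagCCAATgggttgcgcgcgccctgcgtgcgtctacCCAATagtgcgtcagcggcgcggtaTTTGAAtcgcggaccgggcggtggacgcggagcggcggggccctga
Kif23: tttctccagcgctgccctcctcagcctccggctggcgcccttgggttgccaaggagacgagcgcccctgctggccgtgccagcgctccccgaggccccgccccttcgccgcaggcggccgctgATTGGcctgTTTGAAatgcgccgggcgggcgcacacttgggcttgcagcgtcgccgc
Cenpa: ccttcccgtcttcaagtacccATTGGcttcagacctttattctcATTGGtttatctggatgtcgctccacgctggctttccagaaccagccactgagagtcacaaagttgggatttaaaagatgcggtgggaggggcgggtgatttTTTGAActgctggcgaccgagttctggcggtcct

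In Plk1 the CHR letters begin at base 31 after the start and the CCAAT letters 14 bases before it; in Cdc20 they begin 18 bases before the start, between CCAAT letters at 53 and 8 bases before it. In Kif23 and Ccnb2 the CHR letters begin at bases 3 and 5. RefSeq promoters, from 250 bases before to 50 after the start, were at hand for 42 of the 51 genes. The others were Spc24, Cdc25c, Kif20a, Foxm1, Tpx2, Aurkb, Incenp, Dlgap5 and Ccna2. Only the first listed promoter of each gene was scored, so motifs at other starts are not counted. On either strand, TTTGAA was found in 30 of the 42 (71.4%). The shares were 18.1% of all 27025 genes with a promoter and 11.5% of the 7203 with a mean of at least 1 RPKM. CCAAT was found in 32 (76.2%), against 37.9% and 39.4%. A CHR, in either spelling, together with CCAAT was found in 28 (66.7%), against 7.7% and 5.9%. Neighbouring motifs can share a base. A match describes the letters and is not a binding site shown in these cells.

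The mitosis genes were higher at 39.5 than at 37 °C in both genotypes, with the wider difference in WT. Their summed level was 1036 RPKM at 39.5 °C and 703 RPKM at 37 °C with the KO label, and 1067 RPKM at 39.5 °C and 591 RPKM at 37 °C in WT. All 50 tested members had a temperature log2 ratio above 0 under the KO label (48.7% of 13715 rows) and in WT (46.5%), and so in both (27.9%). Under the KO label the median log2 ratio on the log2(RPKM + 1) scale was 0.49, between 0.15 for Pttg1 and 0.76 for Kif2c. In WT it was 0.80, between 0.18 for Spc24 and 1.29 for Nusap1. All rows had medians of −0.01 under the KO label and −0.02 in WT. The 95% counting interval of the RPKM ratio lay above 1 for 49 of the 50 with the KO label (22.7% of all rows) and for 49 in WT (22.4% of all rows). It held 1 for Pttg1 with the KO label and for Spc24 in WT. At the 2-fold rule, 0 members were higher under the KO label (0.751% of all rows) and 0 lower (0.911%). In WT 9 were higher (1.46% of all rows) and 0 lower (0.525%). The 9 were Ccnb1, Nek2, Ndc80, Spc25, Kif11, Kif20a, Hmmr, Nusap1 and Ube2c. The highest library was the KO label at 39.5 °C for 16 of the 51 genes and WT at 39.5 °C for 35. The lowest was the KO label at 37 °C for 17 and WT at 37 °C for 34. The matching shares of all rows were not counted, so these numbers describe the members only. In 49 of the 50 tested, both libraries at 39.5 °C stood above both at 37 °C, against 13.1% of all rows. RNA of a whole culture cannot tell more dividing cells apart from more transcript per dividing cell. Among markers of other cells, the myeloid marker Cd68 followed temperature as well, at 8.17 and 3.61 RPKM at 39.5 and 37 °C with the KO label and 4.57 and 1.7 RPKM in WT. The B cell marker Ighm ran the other way, at 3.37 and 8.69 RPKM at 39.5 and 37 °C with the KO label and 4.39 and 14.3 RPKM in WT. Their part in the result was not tested.

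**Figure D1:**
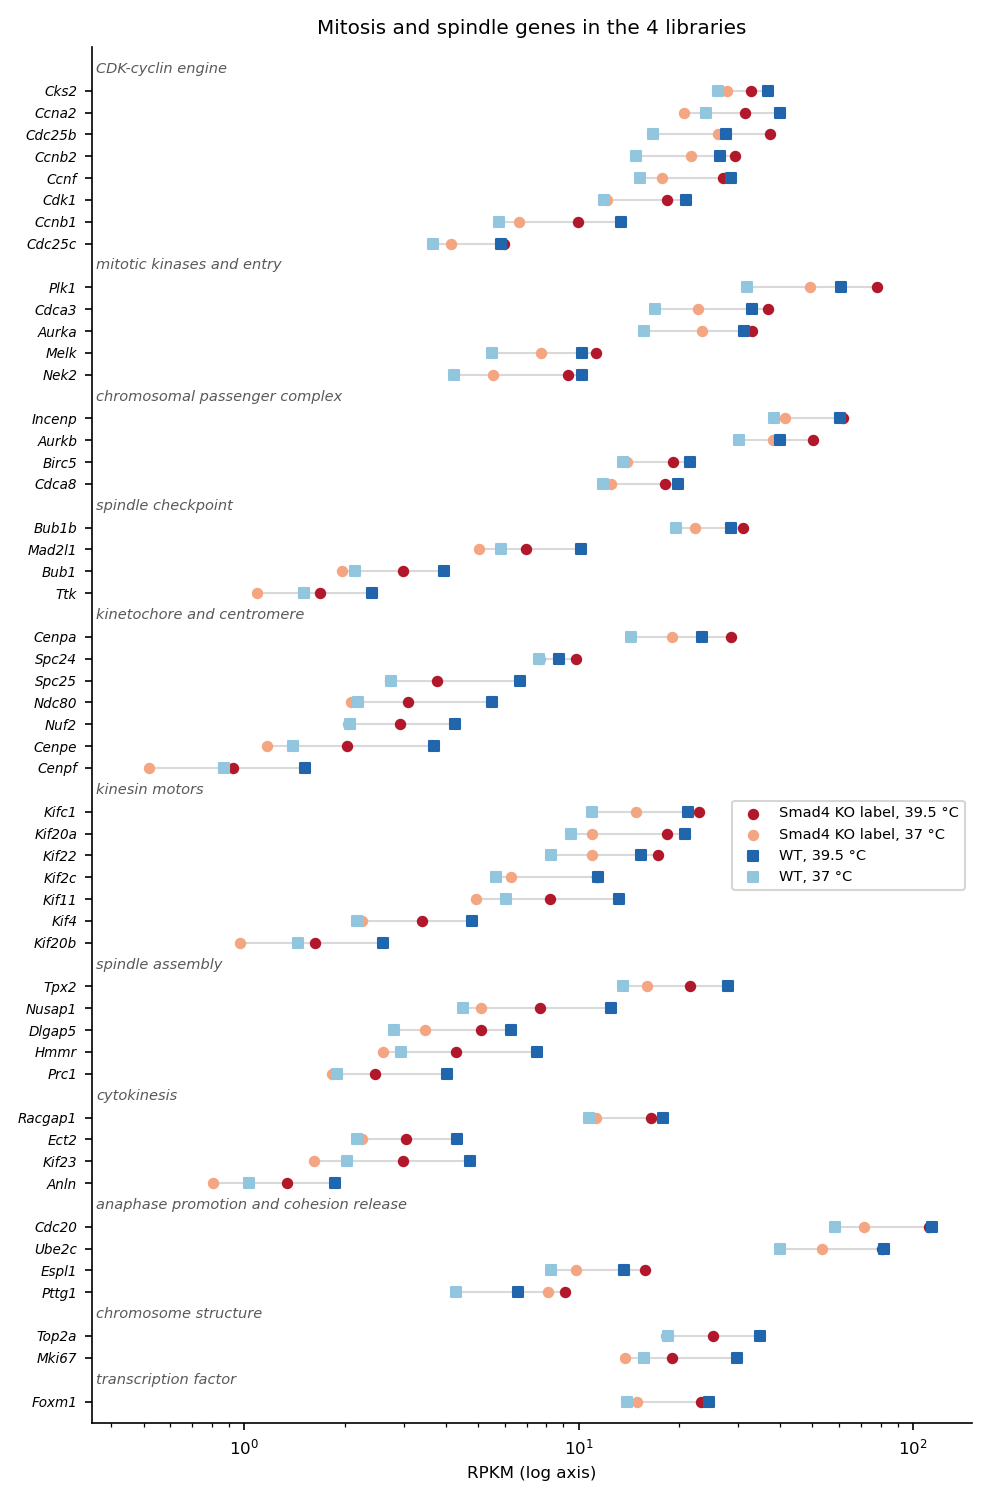
RPKM of each of the 51 mitosis and spindle genes (log axis), grouped by role, with 1 point per library: circles for the KO label and squares for WT, dark for 39.5 °C and pale for 37 °C. The dark points lie right of the pale ones in all but Pttg1, where WT at 39.5 °C (6.58 RPKM) is below the KO label at 37 °C (8.11 RPKM).

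A limma fit of all 4 libraries, with genotype label and temperature as additive terms, gave no member an adjusted p under 0.05 for temperature. Adjusted p ran from 0.105 for Kif2c to 0.462 for Spc24, and of all 13715 rows 2 rose (0.0146%) and 1 fell (0.00729%). At an unadjusted p under 0.05, 48 of the 50 members were higher (7.17% of all rows) and 0 lower (6.79%), the exceptions being Spc24 and Pttg1. The shared log2 change was 0.90 ± 0.21 (SE, 2 libraries per temperature) for Nusap1, 0.83 ± 0.13 for Kif2c, 0.79 ± 0.13 for Plk1 and 0.66 ± 0.13 for Cdk1. The fit has 1 residual degree of freedom. A pseudocount of 0.1, no minimum mean, scaling to total reads, upper quartile scaling and no variance trend also gave 0 members. Among all rows these settings called at most 19 that rose and 11 that fell, with the pseudocount of 0.1. Other counts came from the following settings. With a minimum mean of 5 RPKM, 25 of 35 members rose (1.99% of 8947 rows) and 0 fell (1.25%). With limma-voom on the recovered reads, 21 of 50 rose (1.63% of all rows) and 0 fell (0.919%).

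**Figure D2:**
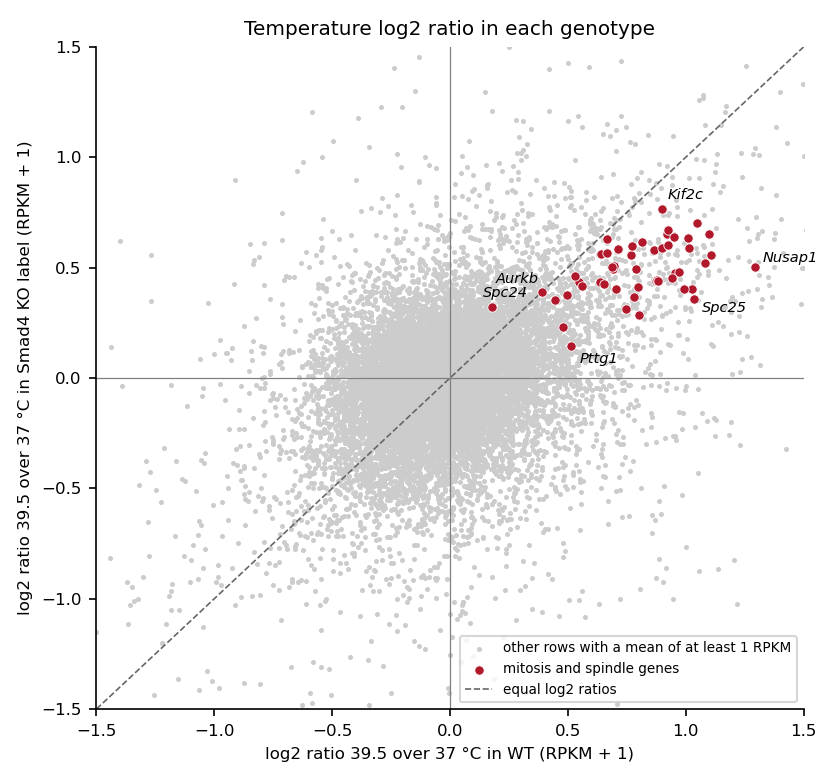
Log2 ratio of 39.5 over 37 °C on the log2(RPKM + 1) scale in WT (x axis) and under the KO label (y axis) for the 50 tested mitosis genes (red) and the other tested rows (grey; 119 of them lie outside the axis limits of 1.5 and are not drawn), with a dashed line of equal ratios. All red points are above 0 on both axes, and 48 of 50 lie below the dashed line.

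Ratios in the next paragraphs are RPKM at 39.5 over 37 °C, with 95% counting intervals in brackets. The cyclin and kinase engine was higher at 39.5 °C in all of its 8 genes, which had median log2 ratios of 0.51 with the KO label and 0.74 in WT. Cdk1, the kinase that starts mitosis, stood at 18.3 and 12.1 RPKM with the KO label at 39.5 and 37 °C, against 21 and 11.9 RPKM in WT. Cdk1 ratios were 1.51 (1.4 to 1.63) with the KO label and 1.76 (1.63 to 1.9) in WT. Ccnb1, the cyclin B1 gene, gave 9.98 and 6.64 RPKM in the 39.5 and 37 °C libraries under the KO label, and 13.3 and 5.77 RPKM in those of WT. The Ccnb1 ratio was 1.5 (1.34 to 1.69) under the KO label and 2.31 (2.07 to 2.59) in WT. For Ccnb2, which encodes cyclin B2, the 39.5 and 37 °C values were 29.3 and 21.7 RPKM under the KO label, and 26.5 and 14.8 RPKM in WT. Ratios for Ccnb2 came to 1.35 (1.21 to 1.5) under the KO label and 1.79 (1.59 to 2.02) in WT. Cyclin B1 thus had the highest temperature ratio of the engine in WT. In the deposited values Ccnb2 was highest at 39.5 °C with the KO label, Ccnb1 and Ccna2 at 39.5 °C in WT. For Ccnb2 the ratio of the KO label to WT at 39.5 °C was close to 1, at 1.11 (1.002 to 1.22). Ccna2, the cyclin A gene, which also serves DNA synthesis, stood at 31.4 and 20.6 RPKM with the KO label at 39.5 and 37 °C, against 39.9 and 24 RPKM in WT. Ccna2 ratios were 1.53 (1.43 to 1.63) with the KO label and 1.66 (1.57 to 1.76) in WT. For Cdc25b, encoding a phosphatase that activates CDK1, the 39.5 and 37 °C values were 37.2 and 26.1 RPKM under the KO label, and 27.6 and 16.7 RPKM in WT. Ratios for Cdc25b came to 1.42 (1.34 to 1.51) under the KO label and 1.65 (1.54 to 1.78) in WT. On the log2(RPKM + 1) scale Cdc25b had the highest ratio of the KO label to WT at 39.5 °C of all tested members, 0.42, while by RPKM ratio Pttg1 stood above it, at 1.38 against 1.35. Its relative Cdc25c was low, between 3.68 and 5.96 RPKM. Cks2, the gene of a small CDK subunit, gave 32.7 and 27.8 RPKM in the 39.5 and 37 °C libraries under the KO label, and 36.8 and 26.1 RPKM in those of WT. The Cks2 ratio was 1.18 (1.02 to 1.36) under the KO label and 1.41 (1.22 to 1.63) in WT. Cks2 had the narrowest difference of the engine, and Ccnf, the gene of cyclin F, a ratio of 1.52 (1.4 to 1.65) with the KO label and 1.87 (1.73 to 2.04) in WT. Ccna2 shares 12.5% of its exon bases with Exosc9 in the annotation; without knowledge of strand, reads there cannot be told apart.

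Among the kinases and other entry factors, all 5 were higher at 39.5 °C, with median log2 ratios of 0.65 with the KO label and 0.93 in WT. Plk1, Polo-like kinase 1, stood at 78.1 and 49.3 RPKM with the KO label at 39.5 and 37 °C, against 61 and 31.8 RPKM in WT. Plk1 ratios were 1.58 (1.5 to 1.68) with the KO label and 1.92 (1.79 to 2.05) in WT. For Aurka, Aurora A, the centrosome kinase, the 39.5 and 37 °C values were 32.9 and 23.4 RPKM under the KO label, and 31.3 and 15.7 RPKM in WT. Ratios for Aurka came to 1.41 (1.3 to 1.52) under the KO label and 2.0 (1.83 to 2.18) in WT. In both, the library at 37 °C in WT stood well below the other 3, and both 39.5 °C libraries above both at 37 °C. Nek2, a kinase of centrosome separation, gave 9.26 and 5.54 RPKM in the 39.5 and 37 °C libraries under the KO label, and 10.2 and 4.23 RPKM in those of WT. The Nek2 ratio was 1.67 (1.49 to 1.88) under the KO label and 2.41 (2.13 to 2.74) in WT. Cdca3, which encodes a trigger of mitotic entry, stood at 36.7 and 22.7 RPKM with the KO label at 39.5 and 37 °C, against 32.9 and 16.9 RPKM in WT. Cdca3 ratios were 1.62 (1.5 to 1.74) with the KO label and 1.95 (1.8 to 2.12) in WT. Melk, a kinase gene with its peak in mitosis, ran between 5.5 and 11.3 RPKM with the same order of libraries as Plk1.

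The chromosomal passenger complex joins the kinase Aurora B to INCENP, survivin and borealin and corrects wrong attachments of chromosomes. Its 4 genes had median log2 ratios of 0.47 with the KO label and 0.64 in WT. Aurkb, the Aurora B gene, stood at 50.4 and 38.2 RPKM with the KO label at 39.5 and 37 °C, against 39.9 and 30.2 RPKM in WT. Aurkb ratios were 1.32 (1.24 to 1.4) with the KO label and 1.32 (1.24 to 1.41) in WT. The Aurora B ratio under the KO label divided by that in WT was 1.0 (0.917 to 1.09). Birc5, the survivin gene, gave 19.2 and 13.9 RPKM in the 39.5 and 37 °C libraries under the KO label, and 21.6 and 13.5 RPKM in those of WT. The Birc5 ratio was 1.38 (1.26 to 1.51) under the KO label and 1.6 (1.46 to 1.74) in WT. Incenp, the scaffold, was the most abundant of the 4 at 61.9 and 41.5 RPKM at 39.5 and 37 °C with the KO label and 60.3 and 38.3 RPKM in WT. Cdca8, the borealin gene, had ratios of 1.45 (1.35 to 1.57) with the KO label and 1.67 (1.55 to 1.8) in WT.

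The spindle checkpoint, which delays anaphase until every kinetochore is attached, was represented by 4 genes with median log2 ratios of 0.41 with the KO label and 0.59 in WT. Bub1, a checkpoint kinase, stood at 2.98 and 1.97 RPKM with the KO label at 39.5 and 37 °C, against 3.95 and 2.14 RPKM in WT. Bub1 ratios were 1.52 (1.23 to 1.87) with the KO label and 1.84 (1.53 to 2.23) in WT. Ttk, the gene of the MPS1 kinase, gave 1.68 and 1.09 RPKM in the 39.5 and 37 °C libraries under the KO label, and 2.41 and 1.51 RPKM in those of WT. The Ttk ratio was 1.53 (1.18 to 2.0) under the KO label and 1.6 (1.29 to 1.99) in WT. For Mad2l1, which encodes MAD2, the inhibitor of CDC20, the 39.5 and 37 °C values were 6.97 and 5.03 RPKM under the KO label, and 10.2 and 5.86 RPKM in WT. Ratios for Mad2l1 came to 1.39 (1.26 to 1.52) under the KO label and 1.74 (1.6 to 1.88) in WT. These 3 were lowest in the library with the KO label at 37 °C and highest in WT at 39.5 °C. Bub1b, the BUBR1 gene, was the most abundant and kept another order, at 31 and 22.2 RPKM at 39.5 and 37 °C with the KO label and 28.6 and 19.5 RPKM in WT.

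By RPKM ratio in WT, Spc24 was the lowest of the tested members and Cenpe the next highest after Nusap1, and both are kinetochore genes. In the 4-part NDC80 complex, which grips microtubules, 3 members had ratios over 2 in WT and Spc24 did not. Ndc80, the gene that names the complex, stood at 3.08 and 2.09 RPKM with the KO label at 39.5 and 37 °C, against 5.51 and 2.19 RPKM in WT. Ndc80 ratios were 1.48 (1.11 to 1.98) with the KO label and 2.51 (1.96 to 3.24) in WT. For Spc25, a partner subunit, the 39.5 and 37 °C values were 3.77 and 2.72 RPKM under the KO label, and 6.66 and 2.74 RPKM in WT. Ratios for Spc25 came to 1.38 (1.12 to 1.71) under the KO label and 2.43 (2.02 to 2.94) in WT. Nuf2, the NDC80 dimer partner, gave 2.93 and 2.05 RPKM in the 39.5 and 37 °C libraries under the KO label, and 4.28 and 2.07 RPKM in those of WT. The Nuf2 ratio was 1.43 (1.21 to 1.7) under the KO label and 2.07 (1.77 to 2.42) in WT. All 3 were highest in WT at 39.5 °C, with the libraries at 37 °C close together. Spc24, the partner of SPC25, stood at 9.79 and 7.65 RPKM with the KO label at 39.5 and 37 °C, against 8.72 and 7.6 RPKM in WT. Spc24 ratios were 1.28 (1.11 to 1.48) with the KO label and 1.15 (0.995 to 1.32) in WT. Ndc80 rested on few reads, 125 and 81 at 39.5 and 37 °C with the KO label and 234 and 88 in WT, so its intervals were wide. With the KO label the 4 ratios lay together, from 1.28 to 1.48, whereas in WT that of Spc24 stood apart from the other 3. For Cenpa, the centromere histone gene, the 39.5 and 37 °C values were 28.6 and 19 RPKM under the KO label, and 23.4 and 14.4 RPKM in WT. Ratios for Cenpa came to 1.5 (1.42 to 1.59) under the KO label and 1.63 (1.53 to 1.73) in WT. Cenpe, a kinetochore motor, gave 2.03 and 1.17 RPKM in the 39.5 and 37 °C libraries under the KO label, and 3.7 and 1.39 RPKM in those of WT. The Cenpe ratio was 1.73 (1.44 to 2.09) under the KO label and 2.65 (2.27 to 3.11) in WT. Cenpf, a large kinetochore protein gene, stood at 0.926 and 0.518 RPKM at 39.5 and 37 °C with the KO label and 1.52 and 0.868 RPKM in WT, ratios of 1.79 (1.45 to 2.21) with the KO label and 1.76 (1.5 to 2.06) in WT. It was the lowest member in every library.

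All 7 kinesin motor genes were higher at 39.5 °C, with median log2 ratios of 0.62 with the KO label and 0.90 in WT. Kif11, the EG5 motor that pushes spindle poles apart, stood at 8.19 and 4.92 RPKM with the KO label at 39.5 and 37 °C, against 13.2 and 6.06 RPKM in WT. Kif11 ratios were 1.67 (1.48 to 1.88) with the KO label and 2.18 (1.97 to 2.42) in WT. Kif20a, a motor of the central spindle, gave 18.4 and 10.9 RPKM in the 39.5 and 37 °C libraries under the KO label, and 20.8 and 9.52 RPKM in those of WT. The Kif20a ratio was 1.68 (1.54 to 1.85) under the KO label and 2.18 (1.99 to 2.39) in WT. For Kif2c, which encodes MCAK, a microtubule depolymerase, the 39.5 and 37 °C values were 11.3 and 6.26 RPKM under the KO label, and 11.4 and 5.65 RPKM in WT. Ratios for Kif2c came to 1.81 (1.62 to 2.03) under the KO label and 2.02 (1.8 to 2.26) in WT. On the log2(RPKM + 1) scale Kif2c had the highest temperature ratio of all tested members under the KO label, while by RPKM ratio Kif23 stood above it, at 1.84; the 2 Kif2c libraries at 39.5 °C were level. Kif4, a chromokinesin, stood at 3.41 and 2.25 RPKM with the KO label at 39.5 and 37 °C, against 4.81 and 2.17 RPKM in WT. Kif4 ratios were 1.51 (1.27 to 1.8) with the KO label and 2.22 (1.89 to 2.61) in WT. Kif20b, a kinesin of the midbody, gave 1.63 and 0.97 RPKM in the 39.5 and 37 °C libraries under the KO label, and 2.61 and 1.44 RPKM in those of WT. The Kif20b ratio was 1.68 (1.34 to 2.13) under the KO label and 1.8 (1.5 to 2.17) in WT. Kif22 ran between 8.29 and 17.3 RPKM and Kifc1, a minus-end motor, between 10.9 and 22.9 RPKM; both were highest at 39.5 °C with the KO label. Kif20a shares 29.3% of its exon bases with Cdc23, and Kif4 shares 15.1% with Pdzd11.

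Spindle assembly factors showed the widest gap between genotypes, with median log2 ratios of 0.45 with the KO label and 0.99 in WT for the 5 genes. Nusap1, which bundles spindle microtubules, stood at 7.65 and 5.1 RPKM with the KO label at 39.5 and 37 °C, against 12.5 and 4.52 RPKM in WT. Nusap1 ratios were 1.5 (1.31 to 1.72) with the KO label and 2.77 (2.44 to 3.15) in WT. For Hmmr, a spindle and centrosome adaptor, the 39.5 and 37 °C values were 4.3 and 2.6 RPKM under the KO label, and 7.5 and 2.95 RPKM in WT. Ratios for Hmmr came to 1.65 (1.41 to 1.94) under the KO label and 2.54 (2.22 to 2.92) in WT. Tpx2, the activator of Aurora A, gave 21.5 and 16 RPKM in the 39.5 and 37 °C libraries under the KO label, and 27.9 and 13.5 RPKM in those of WT. The Tpx2 ratio was 1.34 (1.25 to 1.44) under the KO label and 2.06 (1.92 to 2.21) in WT. Each was highest in WT at 39.5 °C and next highest with the KO label at 39.5 °C. Prc1, which crosslinks the central spindle, stood at 2.46 and 1.83 RPKM with the KO label at 39.5 and 37 °C, against 4.04 and 1.89 RPKM in WT. Prc1 ratios were 1.34 (1.14 to 1.57) with the KO label and 2.14 (1.86 to 2.47) in WT. Dlgap5, a factor of kinetochore fibres, had ratios of 1.47 (1.3 to 1.67) with the KO label and 2.25 (1.98 to 2.56) in WT.

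The cytokinesis genes had median log2 ratios of 0.44 with the KO label and 0.72 in WT. Kif23, the motor part of centralspindlin, gave 2.98 and 1.61 RPKM in the 39.5 and 37 °C libraries under the KO label, and 4.73 and 2.02 RPKM in those of WT. The Kif23 ratio was 1.84 (1.57 to 2.18) under the KO label and 2.34 (2.04 to 2.69) in WT. Anln, anillin, a scaffold of the cleavage furrow, stood at 1.34 and 0.807 RPKM with the KO label at 39.5 and 37 °C, against 1.87 and 1.04 RPKM in WT. Anln ratios were 1.66 (1.33 to 2.08) with the KO label and 1.8 (1.49 to 2.18) in WT. For Racgap1, the other part of centralspindlin, the 39.5 and 37 °C values were 16.4 and 11.3 RPKM under the KO label, and 17.8 and 10.7 RPKM in WT. Ratios for Racgap1 came to 1.46 (1.36 to 1.56) under the KO label and 1.67 (1.56 to 1.78) in WT. Ect2, which activates RhoA at the furrow, ran between 2.17 and 4.32 RPKM. In all 4 the order from the top was WT at 39.5 °C and then the KO label at 39.5 °C.

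Genes of anaphase and cohesion release included the most abundant members. Cdc20, the activator of the anaphase-promoting complex, stood at 112 and 71.3 RPKM with the KO label at 39.5 and 37 °C, against 114 and 58.6 RPKM in WT. Cdc20 ratios were 1.57 (1.49 to 1.65) with the KO label and 1.95 (1.84 to 2.05) in WT. Ube2c, its ubiquitin-conjugating enzyme, gave 80.8 and 53.4 RPKM in the 39.5 and 37 °C libraries under the KO label, and 81.8 and 40 RPKM in those of WT. The Ube2c ratio was 1.51 (1.44 to 1.59) under the KO label and 2.05 (1.94 to 2.16) in WT. The 2 libraries at 39.5 °C differed by less than the counting error for Cdc20 and for Ube2c, while those at 37 °C did not. For Espl1, separase, which cuts cohesin, the 39.5 and 37 °C values were 15.7 and 9.82 RPKM under the KO label, and 13.7 and 8.24 RPKM in WT. Ratios for Espl1 came to 1.6 (1.5 to 1.71) under the KO label and 1.66 (1.55 to 1.78) in WT. Pttg1, securin, the inhibitor of separase, stood at 9.07 and 8.11 RPKM with the KO label at 39.5 and 37 °C, against 6.58 and 4.31 RPKM in WT. Pttg1 ratios were 1.12 (0.953 to 1.31) with the KO label and 1.53 (1.25 to 1.87) in WT. Pttg1 was the 1 tested member whose libraries with the KO label both stood above both in WT (29.4% of all rows). Ube2c shares 22.8% of its exon bases with Tnnc2.

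The 3 remaining genes were higher at 39.5 °C too. Top2a, topoisomerase IIα, which untangles chromosomes, stood at 25.2 and 18.3 RPKM with the KO label at 39.5 and 37 °C, against 34.9 and 18.5 RPKM in WT. Top2a ratios were 1.38 (1.31 to 1.45) with the KO label and 1.88 (1.8 to 1.97) in WT. Mki67, the gene of the proliferation antigen Ki-67, gave 19.1 and 13.8 RPKM in the 39.5 and 37 °C libraries under the KO label, and 29.8 and 15.7 RPKM in those of WT. The Mki67 ratio was 1.38 (1.31 to 1.46) under the KO label and 1.9 (1.82 to 1.99) in WT. For Foxm1, the transcription factor of late cell cycle genes, the 39.5 and 37 °C values were 23.2 and 15 RPKM under the KO label, and 24.5 and 13.9 RPKM in WT. Ratios for Foxm1 came to 1.55 (1.45 to 1.65) under the KO label and 1.76 (1.65 to 1.87) in WT. Top2a and Mki67 were highest in WT at 39.5 °C, where they exceeded the KO label at 39.5 °C, and the ratio of the KO label to WT for Foxm1 at 39.5 °C was 0.946 (0.895 to 0.999).

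The temperature difference was smaller under the KO label than in WT in 48 of 50 members, against 50.4% of all rows. The exceptions were Spc24 and Aurkb, whose intervals held 1. The temperature ratio with the KO label divided by that in WT had a median of 0.802 over the members, and its 95% counting interval lay below 1 for 36 of 50 (20.4% of all rows) and above 1 for 0 (21.8% of all rows). Nusap1 had the lowest value, 0.542 (0.452 to 0.649), followed by Spc25 at 0.569 (0.432 to 0.749) and Ndc80 at 0.589 (0.406 to 0.855). The median difference of log2 ratios was −0.30 for the members and 0.00 for all rows. By role it was −0.55 for spindle assembly, −0.45 for kinetochore genes, −0.31 for kinesins and −0.13 for the passenger complex. Across the 50 genes, which share their libraries and are not replicates, the temperature log2 ratios of the genotypes had a Pearson's r of 0.49. Over all 13715 tested rows r was 0.39. The interaction itself has no residual degree of freedom in this design, so the difference between genotypes was not tested.

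Against genotype the members did not move as a block. At 39.5 °C the counting interval of the ratio of the KO label to WT lay above 1 for 10 of the 50 tested members and below 1 for 28 (31.5% and 30.1% of all rows); at 37 °C it lay above 1 for 22 and below 1 for 8 (30.9% and 32.1% of all rows). The median log2 ratio was −0.16 at 39.5 °C, where 16 of 50 members (32%) were above 0 (50.3% of all rows). It was 0.11 at 37 °C, where 34 of 50 (68%) were above 0 (48.9% of all rows). Scaled to total reads in place of the deposited scaling, the members above 0 numbered 13 (26%) at 39.5 °C and 27 (54%) at 37 °C, against 42.1% of all rows at 39.5 °C and 42.2% at 37 °C. With upper quartile scaling they numbered 14 (44.4% of all rows) at 39.5 °C and 33 (47.3% of all rows) at 37 °C. Scaling to total reads gave medians of −0.25 at 39.5 °C and 0.029 at 37 °C for the members, and −0.07 and −0.08 for all rows. With a minimum mean of 5 RPKM the members' medians were −0.029 at 39.5 °C and 0.18 at 37 °C. No member passed the 2-fold rule at 39.5 °C (2.3% of all rows higher, 1.05% lower) or at 37 °C (4.7% higher, 1.14% lower). In the limma fit 0 members had an adjusted p under 0.05 for genotype, while 1176 of all rows rose (8.57%) and 644 fell (4.7%). Adjusted p was lowest for Cdc25b, at 0.0555 with a log2 change of 0.52 ± 0.13, and for Pttg1, at 0.0558 with 0.59 ± 0.15. At an unadjusted p under 0.05, 5 members were higher with the KO label (19% of all rows), namely Cdc25b, Plk1, Aurkb, Cenpa and Pttg1, and 3 were lower (15.6%), namely Kif11, Kif20b and Mki67. With a minimum mean of 5 RPKM, 3 of 35 members rose, namely Cdc25b, Plk1 and Pttg1 (15.3% of 8947 rows), and 0 fell (9.68%). With limma-voom the same 3 of 50 rose (11.8% of all rows), and Kif20b and Kif11 fell (9.33%). Both settings thus called a smaller share of members than of all rows.

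**Figure D3:**
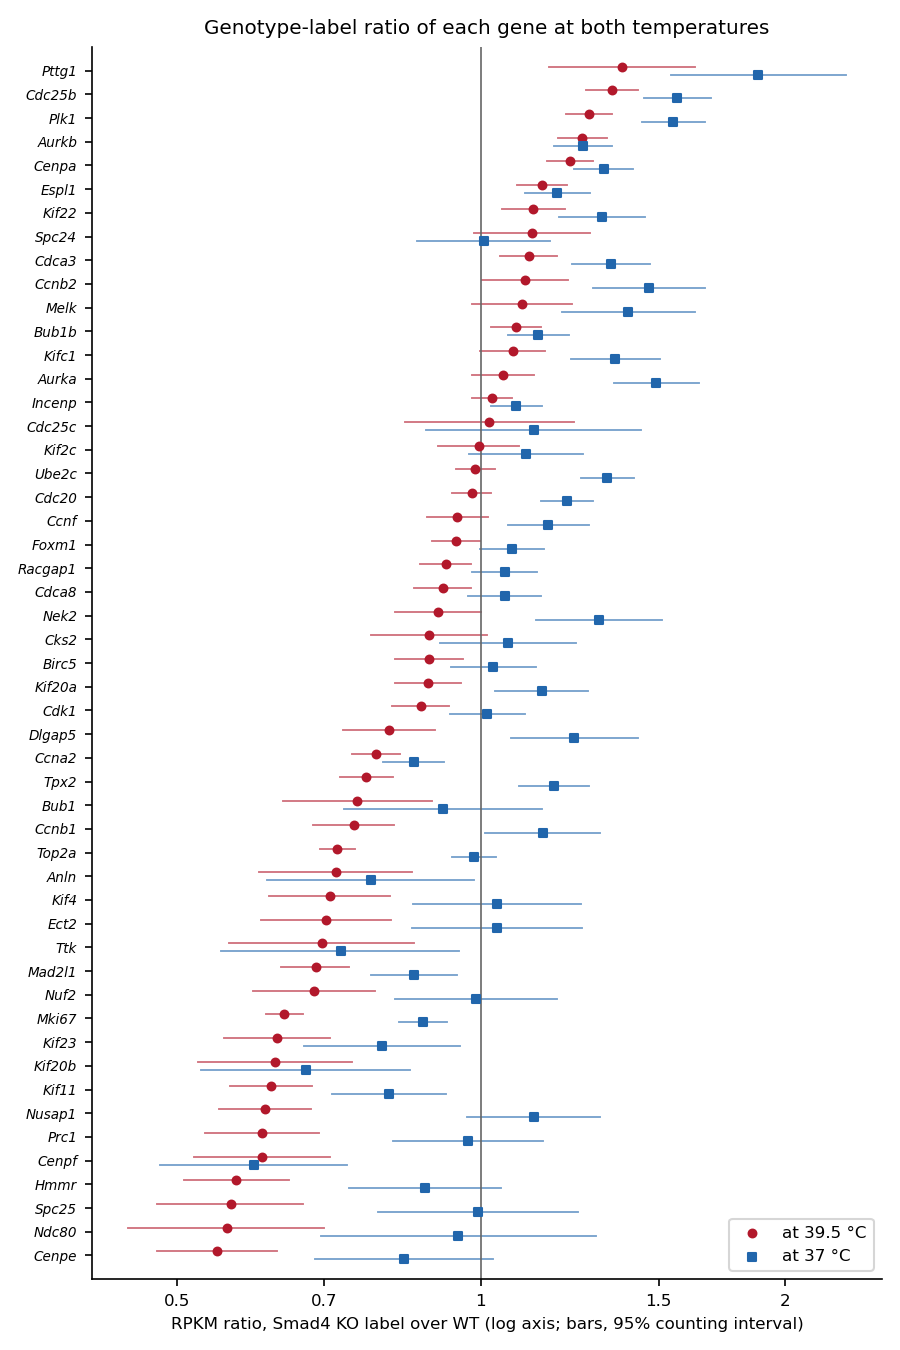
RPKM ratio of the KO label to WT for each of the 51 genes on a log axis, at 39.5 °C (red circles) and at 37 °C (blue squares), ordered by the value at 39.5 °C, with 95% counting intervals as bars. Pttg1, Cdc25b and Plk1 stand at the top and Cenpe, Ndc80, Spc25 and Hmmr at the bottom, and most squares lie right of their circles.

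By these intervals, 10 of the 51 genes were higher with the KO label at both temperatures (22% of all tested rows): Ccnb2, Cdc25b, Plk1, Cdca3, Aurkb, Bub1b, Cenpa, Kif22, Pttg1 and Espl1. Plk1 had ratios of 1.28 (1.22 to 1.35) at 39.5 °C and 1.55 (1.44 to 1.67) at 37 °C, and Cdc25b 1.35 (1.27 to 1.43) and 1.57 (1.45 to 1.69). Another 9 were lower at both (20.5% of all tested rows): Ccna2, Ttk, Mad2l1, Cenpf, Kif11, Kif20b, Kif23, Anln and Mki67. Cenpf is counted here although its mean kept it out of the tested rows. Kif11 had ratios of 0.62 (0.565 to 0.68) at 39.5 °C and 0.811 (0.712 to 0.924) at 37 °C. A further 16, among them the NDC80 members Ndc80, Nuf2 and Spc25, Cenpe, Nusap1, Hmmr and Top2a, were lower at 39.5 °C with an interval that held 1 at 37 °C, against 7.84% of all tested rows. Spc25, for example, had 0.565 (0.478 to 0.667) at 39.5 °C and 0.994 (0.791 to 1.25) at 37 °C. The reverse, higher at 37 °C with an interval that held 1 at 39.5 °C, was found in 8 (7.03% of all tested rows): Ccnf, Aurka, Nek2, Melk, Incenp, Kifc1, Cdc20 and Ube2c. Ccnb1, Kif20a, Tpx2 and Dlgap5 were lower at 39.5 °C and higher at 37 °C (1.84% of all tested rows), and 4 genes held 1 at both (22.7%). The shares of members higher or lower at both temperatures were thus close to those of all rows. These counts rest on the scaling: scaled to total reads, 6 were higher at both (17.8% of all tested rows), namely Cdc25b, Plk1, Aurkb, Cenpa, Pttg1 and Espl1, and 12 lower at both (26.7%). Under that scaling 6 genes were lower at 39.5 °C and higher at 37 °C (1.93% of all tested rows): Tpx2 and Dlgap5 stayed, Nek2, Ube2c, Cdc20 and Ccnf joined, and Ccnb1 and Kif20a left. With upper quartile scaling there were 7 (2.25%), the same 6 and Kif20a.

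Which members were higher with the KO label went with the base composition and the length of their transcripts. Across the 50 tested members, Spearman's rho between the GC content of the longest annotated transcript (39.4% to 57%) and the log2 ratio of the KO label to WT was 0.75 at 39.5 °C and 0.68 at 37 °C. For exon length rho was −0.47 at 39.5 °C and −0.55 at 37 °C, against −0.15 and −0.10 over all 13715 rows. Of the 25 shorter members, 13 were above 0 at 39.5 °C and 21 at 37 °C, and of the 25 longer ones 3 at 39.5 °C and 13 at 37 °C. All tested rows were split at the same length, 4363 bases, but ran from 12 to 41155 bases, against 692 to 10061 for the tested members. Of the shorter rows 54.9% were above 0 at 39.5 °C and 52.4% at 37 °C. Of the longer rows 41.1% were above 0 at 39.5 °C and 41.8% at 37 °C. The level also went with the ratio, with rho of 0.57 at 39.5 °C and 0.58 at 37 °C for the mean RPKM. Over all rows these were 0.19 and 0.04. For the members' temperature log2 ratio in WT, rho was −0.02 with GC, −0.01 with length and −0.002 with mean RPKM. Under the KO label it was 0.51 with GC, −0.02 with length and 0.39 with mean RPKM. Over all rows rho with mean RPKM was −0.24 in WT and −0.04 under the KO label. These are descriptions across genes of the same libraries. Only 71.2% of all tested rows had a transcript matched by name, below the 80% needed, so the GC relation of all rows is not given. The part of GC content, length or level in the genotype differences was not tested.

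**Figure D4:**
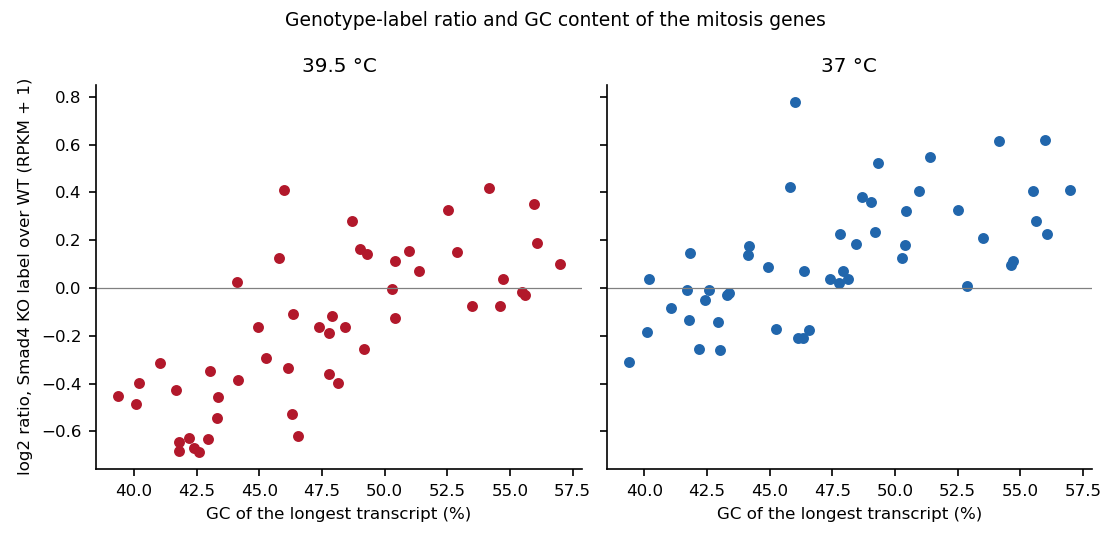
Log2 ratio of the KO label to WT on the log2(RPKM + 1) scale at 39.5 °C (left) and 37 °C (right), against the GC content of the longest annotated transcript in percent, with 1 point for each of the 50 tested mitosis genes. The points rise to the right in both panels, with rho of 0.75 at 39.5 °C and 0.68 at 37 °C.

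Temperature log2 ratios were set out by whether the promoter held a CHR. The 31 tested genes whose promoter held TTTGAA or TTCGAA had median temperature log2 ratios of 0.50 with the KO label (0.29 to 0.76) and 0.86 in WT (0.44 to 1.11), and the 10 with neither had 0.46 (0.15 to 0.65) with the KO label and 0.79 (0.48 to 1.29) in WT. The ranges overlapped in both genotypes. Nusap1, with the highest WT log2 ratio, 1.29, held neither CHR spelling nor CCAAT in its window. Plk1, Cdc20 and Aurka, whose windows hold both, had WT log2 ratios of 0.92, 0.95 and 0.95.

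Other genes of the cell cycle were placed beside the members, from lists chosen with earlier results of these data known. In 52 further mitosis genes the median temperature log2 ratio was 0.32 with the KO label and 0.56 in WT. Of these, 40 had both libraries at 39.5 °C above both at 37 °C (13.1% of all rows). The adjusted limma test for temperature was passed by 0 (0.0146% of all rows rose and 0.00729% fell). At an unadjusted p under 0.05, 32 were higher (7.17% of all rows) and 0 lower (6.79%). Psrc1, a spindle protein gene, had the highest shared temperature change of those tested, at 16.2 and 6.84 RPKM at 39.5 and 37 °C with the KO label and 18.4 and 2.56 RPKM in WT (shared log2 change 1.79 ± 0.31, adjusted p = 0.126). Hjurp, the chaperone of the centromere histone, had the lowest shared temperature change, −0.12 on the log2 scale, though Wee1 and Pmf1 were lower in WT. It was at 39.3 and 44.5 RPKM with the KO label and 26.8 and 27.9 RPKM in WT, and rose with the KO label (log2 0.60 ± 0.12, limma adjusted p = 0.037). The 39 DNA replication genes showed another pattern: their median temperature log2 ratio was 0.37 with the KO label and 0.17 in WT. Only 4 of 39 had the smaller ratio under the KO label, against 48 of 50 mitosis genes and 50.4% of all rows. Rrm2, a subunit of ribonucleotide reductase, had the highest shared temperature change of them (log2 0.64), though under the KO label Tk1, Gins1 and Gins2 had higher log2 ratios. Rrm2 was at 66.8 and 41.7 RPKM at 39.5 and 37 °C with the KO label and 87 and 56.3 RPKM in WT. In the limma fit 0 of the 39 passed the adjusted test for temperature. At an unadjusted p under 0.05, 14 of them were higher (7.17% of all rows) and 0 lower (6.79%). Gins1, of the replicative helicase, fell with the KO label (log2 −0.88 ± 0.14, limma adjusted p = 0.022).

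Condensin and cohesin genes, 18 in all, had medians of 0.30 with the KO label and 0.21 in WT. In the limma fit at an adjusted p under 0.05, 5 of the 18 fell with the KO label (4.7% of all rows) and 0 rose (8.57%). Among the 5 were the condensin genes Smc2 (log2 −0.72 ± 0.12, limma adjusted p = 0.027) and Smc4 (log2 −0.75 ± 0.15, limma adjusted p = 0.034). Smc4 stood at 8.68 and 6.4 RPKM at 39.5 and 37 °C with the KO label and 17.5 and 9.89 RPKM in WT. The 15 genes of the APC/C list had medians near 0, at 0.08 with the KO label and 0.09 in WT. Besides subunit genes the list holds Fzr1, which like Cdc20 encodes an activator of the complex. Shared temperature changes on the log2 scale ran from −0.17 for Anapc10 to 0.45 for Fzr1. The 22 MuvB, MYB, E2F and RB genes had medians of 0.11 with the KO label and 0.20 in WT. The 7 cyclins and kinases of the G1 phase had 0.10 with the KO label and 0.14 in WT, and the 10 tubulin genes 0.12 with the KO label and −0.03 in WT. Mybl2, which encodes B-MYB, was at 33.8 and 18.4 RPKM at 39.5 and 37 °C with the KO label and 33.1 and 21.9 RPKM in WT. In the CDK inhibitor list of 4 genes, Cdkn1a, the p21 gene, was at 130.3 and 137 RPKM at 39.5 and 37 °C with the KO label. In WT it was at 178 and 22.3 RPKM, so WT at 37 °C stood apart below the other 3 libraries. The Cdkn1a temperature ratio was 0.95 (0.914 to 0.987) with the KO label and 7.98 (7.45 to 8.56) in WT. Of the 51 mitosis genes, 34 were lowest in WT at 37 °C and 17 in the KO label at 37 °C, with no share of all rows counted. The part of Cdkn1a in the mitosis genes' differences was not tested.

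**Figure D5:**
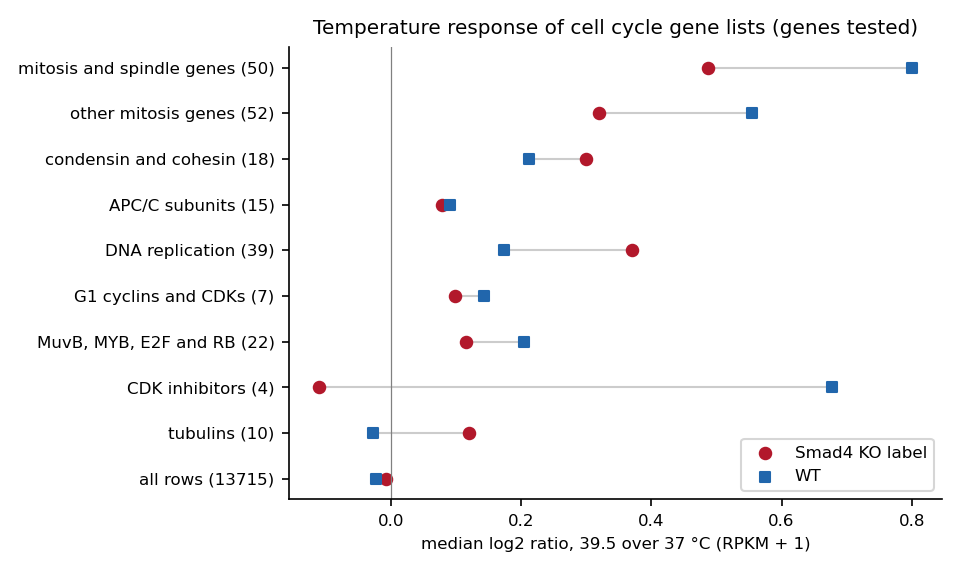
Median log2 ratio of 39.5 over 37 °C on the log2(RPKM + 1) scale for each cell cycle list and for all tested rows (number of genes tested in brackets), under the KO label (red circles) and in WT (blue squares). The mitosis genes have the highest median in both genotypes, and the DNA replication genes have the KO label on the right, at 0.37 against 0.17 in WT.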

How the data were processed

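RNA-seq libraries of 4 groups, 1 each, were grouped by the genotype and treatment labels. The submitters' processing notes name the build mm10 and, in no stated order, edgeR, Subread, featureCounts, Bowtie2 and Trim Galore 0.4.4. Settings, annotation release and strandedness were not given in the sources used here. Values deposited by the authors are RPKM. Multiplied by exon length and a library size, 91.7% of 13143 rows matched to GENCODE vM21 gave whole reads (tolerance 0.01), and with searched lengths whole reads were recovered for 19554 of 19555 rows (tolerance 0.003). The RPKM denominators imply library sizes of 0.997, 0.955, 1.06 and 1.01 times the recovered reads in the KO label at 39.5 and 37 °C and WT at 39.5 and 37 °C. All 51 mitosis genes were recovered, 7 of them with a searched length.

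Ratios were taken on log2(RPKM + 1), which understates low genes, where a row averaged 1 RPKM or more. Ratios of RPKM carry exact Clopper-Pearson 95% intervals, and ratios of ratios log-normal ones, from recovered reads. Such intervals cover counting error only, because PCR copies were not marked and reads are not independent molecules. Tests of shared changes used R 4.3.3 and limma 3.58.1. The additive model used empirical Bayes with a mean-variance trend and had 1 residual degree of freedom; p-values were adjusted by Benjamini-Hochberg over 13715 rows, with a threshold of 0.05. The interaction serves as the error there, so p-values do not measure variation among animals or cultures. The fit was also run on simulated data with a temperature effect, no genotype effect and independent noise for each gene. Such a run does not check the p-values where genes share an interaction. Alternatives were another pseudocount, minimum mean, scaling and variance model, and limma-voom. In GENCODE vM21, 16 members share exon bases with another gene, 6 of them over 10%. Every member may be named; values in every library are given for those that head each role and for the 3 highest and lowest in each pair of libraries, and outside the members for each list's extremes. The members, lists and tests were chosen with earlier results of these data known.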

Additional observations from a re-analysis of the deposited data

Results flagged for a closer look

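In 4 members the ratio of the KO label to WT lay on opposite sides of 1 at the 2 temperatures, with counting intervals that excluded 1 at both, in pairs of 1 library each. The genotype log2 ratio at 39.5 °C minus that at 37 °C was −0.560 for Ccnb1, −0.347 for Kif20a, −0.587 for Tpx2 and −0.489 for Dlgap5. The difference was not tested, since the interaction has no residual degree of freedom. Scaled to total reads, 6 members had such intervals: Tpx2 and Dlgap5 again, and Nek2, Ube2c, Cdc20 and Ccnf, but not Ccnb1 or Kif20a. With upper quartile scaling there were 7, the same 6 and Kif20a.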

How the results depend on the processing

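Of the values that answer a comparison, 52 settings kept their direction and moved by less than the counting spread of a gene or, for counts, by less than 1.5 times, and 7 moved further; 51 settings of single genes were alike and 11 passed the test only under an alternative, and none reversed. The number of members at least 2-fold higher at 39.5 °C in WT was 16 with a pseudocount of 0.1 and 14 when scaled to total reads, against 9. The median genotype log2 ratio at 39.5 °C was −0.029 with a minimum mean of 5 RPKM, against −0.16; 15 of the 35 members left were above 0 (54.5% of 8947 rows). Within that spread, the median at 37 °C was 0.182 with the same minimum and 0.029 when scaled to total reads, against 0.106, and at 39.5 °C −0.246 when scaled to total reads. Members past the limma test for temperature numbered 25 with that minimum and 21 with limma-voom on the recovered reads, against 0, and for genotype 3 and 5, against 0. The minimum of 5 RPKM left 8947 rows to adjust over; the cause of the other counts was not tested. The 11 single-gene calls were those of Nusap1 and Kif2c for temperature and of Cdc25b, Pttg1, Plk1, Kif11 and Kif20b for genotype. Under all 3 scalings 50 of 51 members had both libraries at 39.5 °C above both at 37 °C. No paired analysis was possible because the labels give no replicate numbers and each group has 1 library, which also leaves no replicate to leave out. Depth limits the low members: Ndc80 had 81 reads in the library with the KO label at 37 °C.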
